A study of Mus musculus with 6 samples.

Results

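Reln, Lrp8, Vldlr and Dab1 encode Reelin, its receptors and the adaptor inside the cell. These 4 genes were looked up by symbol in 8 deposited gene lists that together hold 3787 symbols. The lists come from ChIP-seq of H3K27me3, a trimethylated lysine of histone H3 found on silent genes, in primary granulosa cells (GCs), the steroid-producing cells around the oocyte. GCs came from wild type C57BL/6J mice of 8 to 9 weeks. Control GCs (3 samples) received no agent, and DHT-treated GCs (3 samples) received dihydrotestosterone, an androgen, at 25 nM for 24 h. The cells were pooled from several mice and divided over 6 dishes, so that the samples were dishes and not animals. The set was chosen by the entries of Reln in the list of downregulated genes and in both gene body lists, so those entries are given as a description. The partners were added for their place in the pathway.

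Reelin is a large secreted glycoprotein best known for placing neurons in the layers of the brain. It binds the receptors VLDLR and ApoER2, the product of Lrp8, which belong to 1 family of lipoprotein receptors. Binding leads kinases of the Src family to phosphorylate DAB1 on tyrosine, and the signal runs on through PI3K and AKT and through CRK and RAP1. Both receptors also take part in lipoprotein binding, and in hens VLDLR carries yolk precursors into the oocyte.

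The start sites of the genes are shown first, since promoters were 1 of the places in which the study looked for the mark. The 250 bases before the most upstream RefSeq start of each gene are given 5′ to 3′ on its own strand in GRCm38.p6, with every CpG in capitals.
Reln, chr5:22344706-22344955, minus strand: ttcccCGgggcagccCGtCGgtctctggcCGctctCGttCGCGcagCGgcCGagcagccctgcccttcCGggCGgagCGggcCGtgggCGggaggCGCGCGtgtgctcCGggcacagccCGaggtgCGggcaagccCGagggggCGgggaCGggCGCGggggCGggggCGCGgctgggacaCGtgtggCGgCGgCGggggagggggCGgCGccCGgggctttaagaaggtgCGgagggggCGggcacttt
Lrp8, chr4:107802635-107802884, plus strand: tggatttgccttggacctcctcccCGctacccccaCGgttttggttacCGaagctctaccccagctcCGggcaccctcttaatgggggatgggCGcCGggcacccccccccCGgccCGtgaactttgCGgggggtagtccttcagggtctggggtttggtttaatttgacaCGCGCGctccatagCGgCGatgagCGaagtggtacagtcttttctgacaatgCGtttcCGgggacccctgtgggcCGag
Vldlr, chr19:27216234-27216483, plus strand: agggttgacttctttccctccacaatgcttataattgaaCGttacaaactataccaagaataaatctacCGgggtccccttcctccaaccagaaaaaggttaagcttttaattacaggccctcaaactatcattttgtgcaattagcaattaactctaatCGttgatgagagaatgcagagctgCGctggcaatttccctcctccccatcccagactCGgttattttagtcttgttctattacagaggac
Dab1, chr4:103619250-103619499, plus strand: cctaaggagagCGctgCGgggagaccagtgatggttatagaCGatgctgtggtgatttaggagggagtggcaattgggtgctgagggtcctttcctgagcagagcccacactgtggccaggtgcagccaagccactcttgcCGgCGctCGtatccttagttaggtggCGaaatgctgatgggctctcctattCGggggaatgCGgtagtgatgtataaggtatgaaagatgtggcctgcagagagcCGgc
The windows differ in how many CpG dinucleotides they hold. Reln had 37 CpG, more than 97.8% of the 32851 RefSeq windows of this length, and a GC content of 80.0%. The window shown for Lrp8 had 18 CpG, that for Dab1 had 10 and that for Vldlr had 5, where the median of all windows was 6. Further starts were annotated for the partners. A second Dab1 start, 748038 bases downstream, followed a window with 40 CpG, more than 98.7% of all windows. The second Vldlr start, 536 bases downstream, had 18 CpG, and the later Lrp8 starts had 5 and 2.

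**Figure D1:**
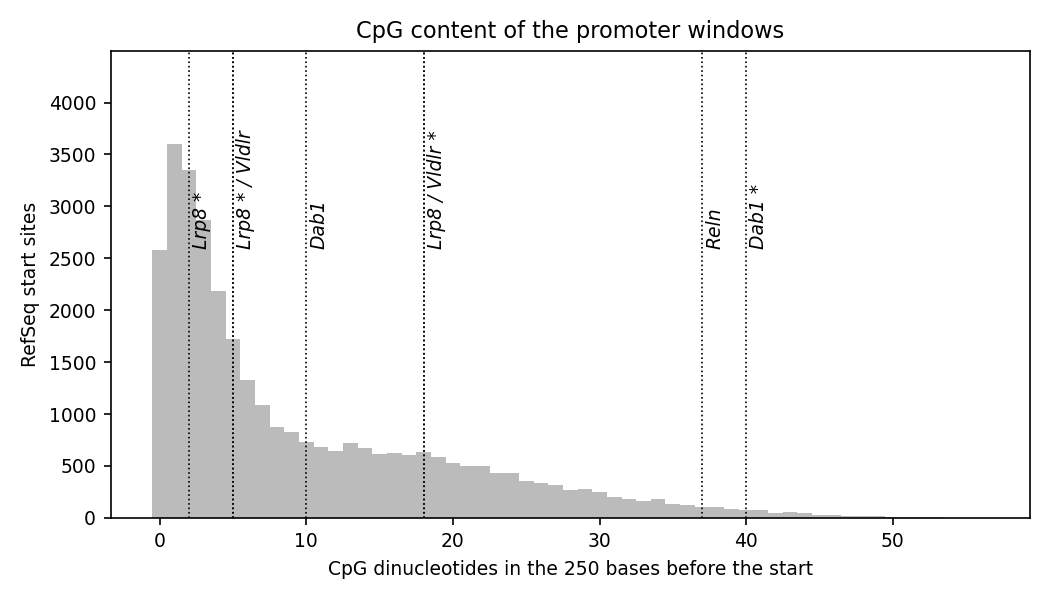
Histogram of CpG dinucleotides (x axis, count) in the 250 bases before each RefSeq start site (y axis, number of start sites), with dotted lines at the starts of the 4 genes and an asterisk at starts that are not the most upstream. Reln at 37 CpG and the second Dab1 start at 40 CpG lie in the right tail, and the other starts lie between 2 and 18.

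The androgen receptor binds an element made of 2 half-sites. The study reports such elements in the promoter or distal region of all its regulated genes. That search was not repeated here, and only the 250 bases before each start were used. The letters TGTTCT, a half-site, were searched for on both strands and were present in 16.1% of all windows. They were absent from the Reln window. They occurred once before the most upstream Vldlr start, 18 bases from it, and once before the second Lrp8 start, 52 bases from it. The full element, this half-site and its reverse complement with 3 free bases between them, was in 0 of these 8 windows and in 3 of all 32851. A match of letters is not a bound site, and its absence from 250 bases says nothing of more distant sequence.

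In promoters, which the study took as 1 kb on either side of the start, 0 of the 4 genes had a peak. The control promoter list holds 0.603% of all RefSeq symbols and the DHT promoter list 0.206%, so 0 of 4 is near the background and says little of these genes.

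In gene bodies, 3 of the 4 genes had a peak in control GCs and 2 had a peak in DHT-treated GCs. The control gene body list holds 11.9% of all symbols and the DHT list 4.36%. Reln, the ligand, was listed in both groups. Dab1, the adaptor, was also listed in both, as were 2.59% of all symbols. Lrp8 was listed in control GCs alone, and Vldlr was in neither list, as were 86.3% of all symbols. The entries of Reln were part of how the set was chosen, so those of the partners are not set against them. Each entry is a call of present or absent from 1 pooled peak list per group. The files give no value or depth per sample, so that no entry has an error between replicates. A gene that is not listed had no called peak, which does not show that the mark was missing.

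**Figure D2:**
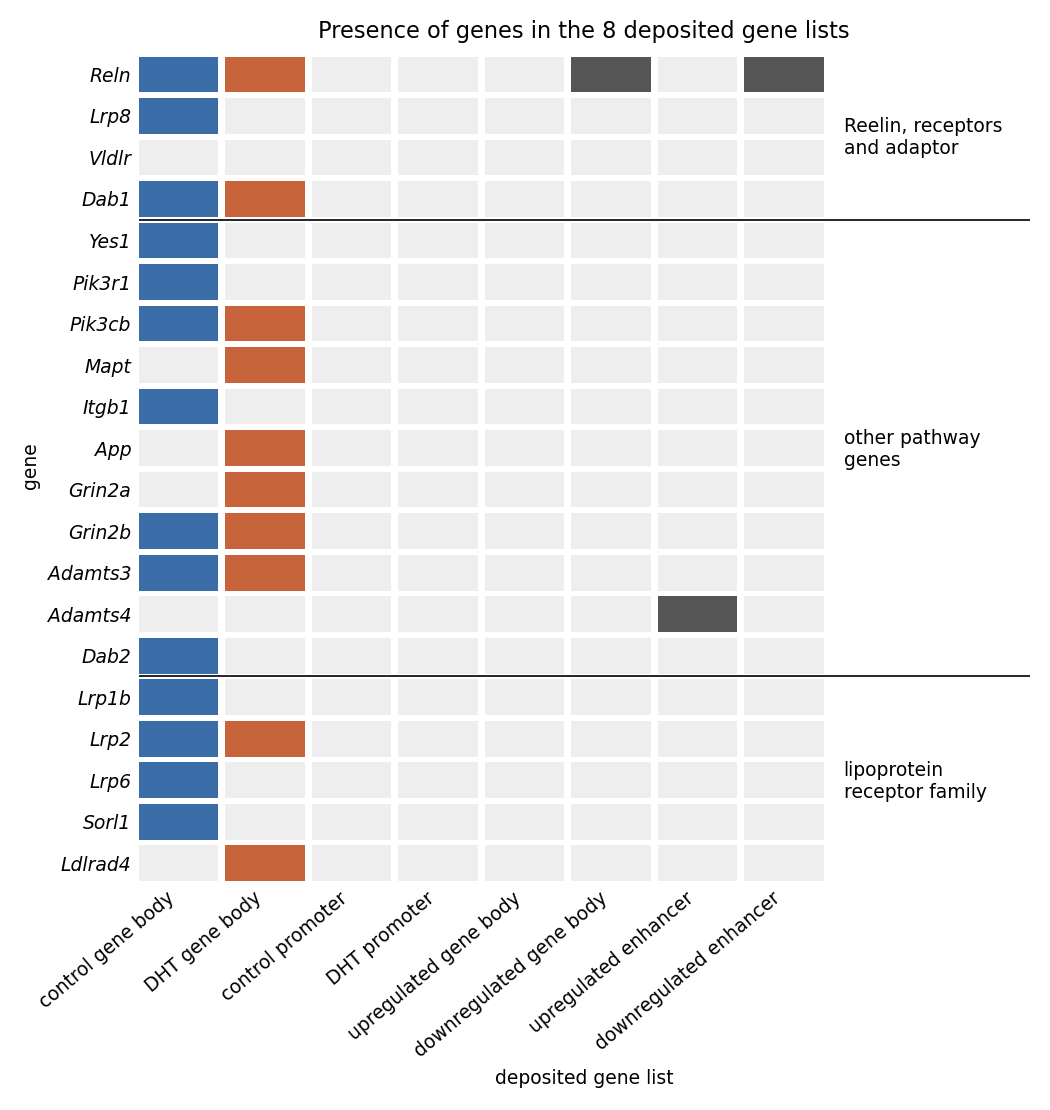
Presence (filled) or absence (light grey) of each gene (rows) in each deposited gene list (columns), with control lists in blue, DHT lists in orange and lists of regulated genes in dark grey. Rows are Reln and its 3 partners, the 11 other pathway genes and the 5 genes grouped as the lipoprotein receptor family that were found in at least 1 list. Reln fills 4 columns, Dab1 fills 2, Lrp8 fills 1 and Vldlr fills 0.

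Gene length moved with these entries. Reln spans 460.3 kb and Dab1 1125 kb in GRCm38.p6, longer than 98.7% and 99.8% of protein-coding genes, whereas Lrp8 spans 74.6 kb and Vldlr 37.8 kb. Each gene was set beside the genes from 0.5 to 2 times its own length. For Reln, 82.3% of 756 such genes were control entries, 42.2% were DHT entries and 37.04% were in both lists. For Dab1, 98.3% of 176 such genes were control entries, 64.8% were DHT entries and 64.2% were in both lists. An entry in both lists was thus the most common outcome at the length of Dab1, and common at the length of Reln. Of the control entries near the length of Reln, 45.0% were also DHT entries, so that control alone was more common there.

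The shorter receptor genes had fewer listed neighbours in length. Of 5248 genes near the length of Lrp8, 26.3% were listed in control and 8.19% after DHT. Of those listed in control, 13.4% were also listed after DHT, so that control alone was the usual entry for a listed gene of that length. Of 7686 genes near the length of Vldlr, 13.4% were listed in control and 3.99% after DHT, and 84.0% were in neither list. The part that length plays in the entries of these 4 genes was not tested.

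**Figure D3:**
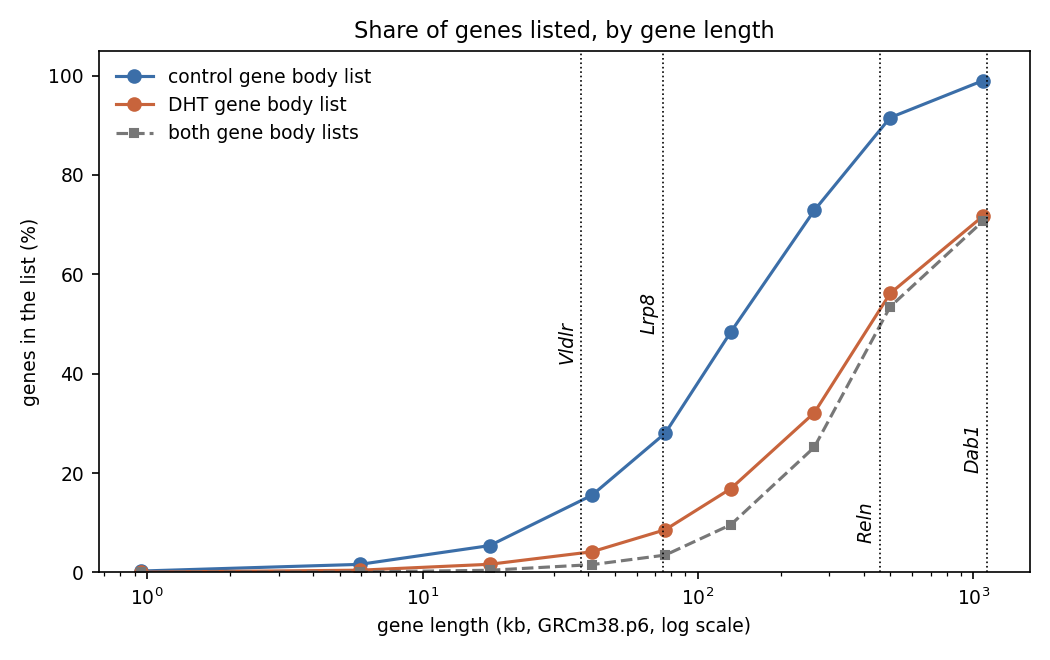
Share of RefSeq genes in the control, the DHT and both gene body lists (y axis, %) by gene length (x axis, kb, log scale), each point a class of genes at its median length. Dotted lines mark the 4 genes. The control share rises from 0.281% of genes up to 3 kb to 99.0% of genes over 800 kb, and the DHT share from 0.0562% to 71.7%.

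No peak could be placed inside a gene, because the peaks are in mm9 and mm9 gene positions were not used here. The chromosome is the smallest region that can be named. Reln lies on chromosome 5, where 839 peaks were called in control and 253 after DHT, a ratio of 30.2%. Lrp8 and Dab1 lie on chromosome 4, with 969 and 232 peaks (23.9%), and Vldlr lies on chromosome 19, with 305 and 94 peaks (30.8%). These ratios moved with the threshold. At a fold enrichment over local background of at least 4, chromosome 5 had 147 control and 167 DHT peaks.

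The peaks that put Reln on both lists must be among those of chromosome 5. Their fold enrichment ran from 2.92 to 6.15 in control, with a median of 3.47, and from 3.37 to 6.61 after DHT, with a median of 4.23. Each fold refers to background in the same pool, so the medians do not measure a gain. No peak on that chromosome exceeded a −log10 q-value of 7.01 in control or 6.63 after DHT, whereas chromosome 4 held peaks that reached 159.1 and 156.3. The median −log10 q-values of the 2 chromosomes were close. They were 1.82 on chromosome 5 and 1.84 on chromosome 4 in control, and 2.33 and 2.27 after DHT. Of the chromosome 5 peaks, 46 control peaks (5.48%, 95% Wilson interval 4.14 to 7.24%) overlapped a DHT peak, and the same number made up 18.2% of the DHT peaks. Whether those in Reln lay at the same place in both groups is not known from the lists.

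Density, over the span from the first to the last peak of a chromosome, gives a scale for these entries. Chromosome 5 had 5.65 control and 1.70 DHT peaks per Mb, which is 2.60 and 0.784 peaks per stretch as long as Reln. The same sum for Dab1 was 7.16 control and 1.71 DHT peaks. It was 0.475 and 0.114 peaks for Lrp8 and 0.199 and 0.0614 peaks for Vldlr. These are means over whole chromosomes and not counts in the genes.

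**Figure D4:**
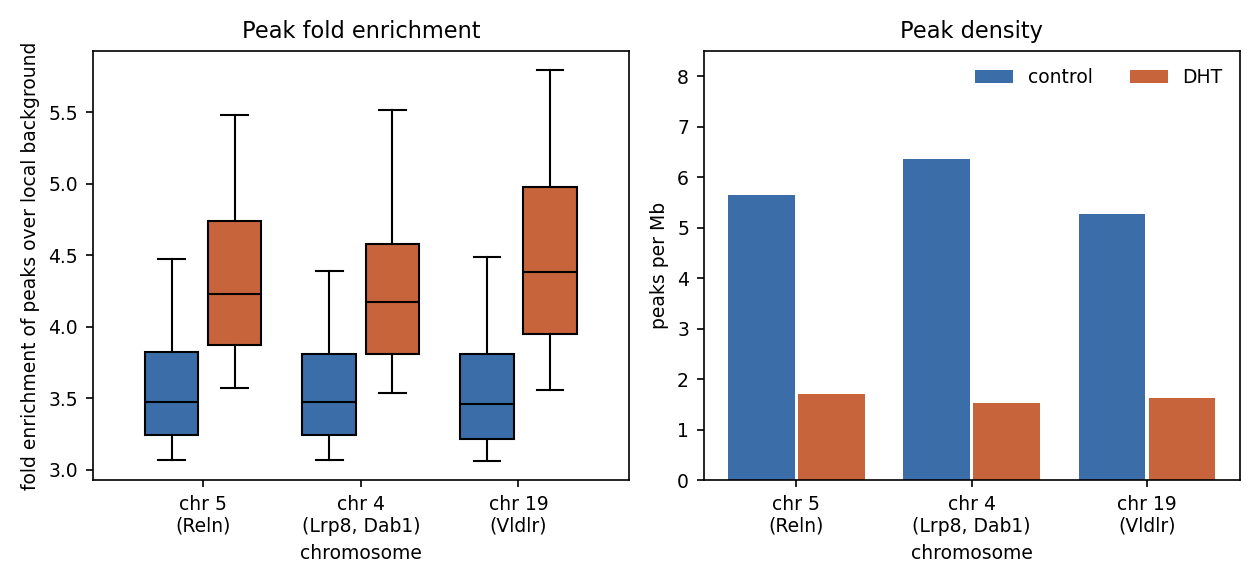
Left, fold enrichment over local background (y axis) of the peaks on the chromosomes that carry the 4 genes, with boxes for the median and quartiles and whiskers for the 5th and 95th percentiles. Right, peaks per Mb (y axis) in control (blue) and DHT (orange). Control density lies between 5.27 and 6.36 peaks per Mb and DHT density between 1.52 and 1.70.

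Genes next to each of the 4 were looked up as well, by their order in GRCm38.p6. Of the 3 nearest protein-coding genes on either side of Reln, 1 was listed, Lhfpl3, which spans 529.5 kb and was in both gene body lists. Orc5, Slc26a5, Psmc2, Dnajc2 and Kmt2e, at most 71.2 kb long, were in neither. Of the 6 around Lrp8, 0 were listed, among them Glis1 of 208.4 kb. Around Vldlr, Smarca2, Pum3 and Rfx3 were listed in control and 0 of 6 after DHT. Smarca2 and Rfx3 span 173.2 and 252.9 kb, and Pum3 spans 41.2 kb. Around Dab1, 4921539E11Rik (60.5 kb) was in both lists, and C8b (38.2 kb) and Fyb2 (181.6 kb) were in the control list alone. Among all protein-coding genes 13.6% were control and 4.96% were DHT entries, and 6 neighbours are too few to set any of these counts apart from those shares. Lrp8 shares its locus with the antisense-named transcript Lrp8os2, which was in neither list, and a peak has no strand.

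Reln was the only 1 of the 4 genes in a list of regulated genes. It was among the 15 downregulated genes with a gene body peak, a list that holds 0.0572% of all symbols. The paper reports fewer downregulated genes with such a peak than this list holds. Whether Reln is among those that the paper counted is not known here. It was also among the 33 downregulated genes linked to an enhancer, 0.126% of all symbols. Downregulated here means lower RNA after DHT in the study's RNA-seq, whose values were not used. The enhancer link was made by the study from chromatin contacts and from a negative correlation of RNA with H3K27me3 at the enhancer. RNA and H3K27me3 came from separately prepared pools of cells. The direction of that link was thus part of how the list was built and is not independent evidence. The lists of upregulated genes, with 0.0839% (gene body) and 0.233% (enhancer) of all symbols, held 0 of the 4 genes. Lrp8, Vldlr and Dab1 were in 0 of the 4 lists of regulated genes.

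Of all listed symbols, 0 others had the same presence over the 8 lists as Reln, which was chosen by these entries, so that nothing is read from that count. The lists of downregulated genes, with 15 (gene body) and 33 (enhancer) genes, had 6 genes in common, which were named after their values were seen. Cap2, Meg3 and Slitrk4 had a gene body peak in control alone, Ntf3, a neurotrophin, and Slc6a4, the serotonin transporter, had 1 in the DHT list alone, and Reln had both. Cntnap2, a cell adhesion gene of 2241 kb, was the other downregulated gene in both gene body lists, but it was not linked to an enhancer.

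Next, 56 other genes of Reelin signalling were looked up, from kinases to proteases and receptor partners. In control 7 (12.5%) had a gene body peak, near the 11.9% of all symbols, and after DHT 6 (10.7%), where all symbols gave 4.36%. Of these, 3 were in both lists. They were Grin2b, an NMDA receptor subunit whose gene spans 460.4 kb, Pik3cb, a catalytic subunit of PI3K, and Adamts3, a protease that cleaves Reelin. Yes1, a kinase of the Src family, Pik3r1, a regulatory subunit of PI3K, the integrin gene Itgb1 and Dab2, a homolog of Dab1, were in the control list alone. Mapt, which encodes tau, App, the amyloid precursor gene, and Grin2a, another NMDA receptor subunit, were in the DHT list alone.

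Among the remaining pathway genes the kinases Src and Fyn, the adaptors Crk and Crkl and the AKT genes were in neither list. Length moved with these entries too. Of the 15 pathway genes over 100 kb, 4 were listed in control, a lower share than the 61.3% of all genes over 100 kb. After DHT 6 of the 15 were listed, a higher share than the 27.1% of all such genes. These differences were not tested. Of the 41 shorter genes, 3 (7.32%) were listed in control and 0 after DHT, near the 6.69% and 1.94% of all genes up to 100 kb. In promoters 0 of 56 were listed in either group.

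In the lists of regulated genes 1 of these pathway genes was found. Adamts4, which encodes a further protease that cleaves Reelin, was upregulated and linked to an enhancer, as were 0.233% of all symbols. Its gene spans 12.1 kb and had no peak in the gene body in either group. The other 55 pathway genes were in 0 of these lists.

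The receptors were last set beside 15 other genes grouped here as the lipoprotein receptor family, with the Ldlrad genes included by name. In control 4 (26.7%) were listed and after DHT 2 (13.3%), compared with 11.9% and 4.36% of all symbols. Of the 7 genes of this group over 100 kb these were 57.1% and 28.6%, near the 61.3% and 27.1% of all genes over 100 kb. Lrp2, which encodes megalin, was in both lists. Lrp1b, Lrp6, a WNT coreceptor, and Sorl1, a sorting receptor, were in the control list alone, as was Lrp8. Ldlrad4, which was included by name, was in the DHT list alone. All 5 span over 100 kb, and of the 8 genes of the group up to 100 kb 0 were listed. Lrp1b, of 2058 kb, was missing from the DHT list, whereas 71.7% of genes over 800 kb were in it.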

How the data were processed

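H3K27me3 ChIP-seq was carried out in 3 control and 3 DHT-treated samples of cultured mouse GCs. Per the labels and methods, the authors mapped reads to mm9 with Bowtie2 2.3.4 and called broad peaks with MACS2 2.1.1 at a q-value of 0.05 or less. Annotation, use of input and the way replicates were combined were not given in the sources used here. The deposited peak files hold 1 pooled list per group, with a score, a fold enrichment (a ratio to local background) and a −log10 q-value for each peak. The other deposited files hold gene symbols without values.

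Groups followed the labelled agent. Symbols were matched exactly, and shares of all genes refer to the 26215 symbols in GRCm38.p6 that have a curated RefSeq transcript, with older names of listed genes brought up to date. GRCm38.p6 gave names, lengths, gene order and start sequences and was not compared with any peak. In the gene body lists 3131 control and 1142 DHT entries found a match. Overlap required 1 bp. No test was run, since no file holds values per sample. Wilson intervals (95%) reflect counting error alone. The genes and the lists were chosen with earlier results of these data known. Named by rule were Reln, its partners, pathway and family genes found in a list, and genes with the entries of Reln. Other genes were named after their values were seen. Planned protein motifs were not analysed, and some genes of the lists are not reported here. Scripts were tested on simulated data and used Python 3.11.15, pandas 2.3.3, scipy 1.17.1, numpy 2.4.6 and matplotlib 3.10.9.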

Additional observations from a re-analysis of the deposited data

How the results depend on the processing

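No paired analysis was possible because each group has 1 pooled list and no value per replicate, and for that reason nothing was recomputed without a replicate. Of 38 alternatives over 25 results, 20 stayed within 1.5 times the reported count or, for shares and ratios, within the 95% interval of the reported value. The entries of the 4 genes were the same with older symbols. With the 27 core pathway genes alone, 3 were in the control and 2 in the DHT gene body list, where all symbols gave 11.9% and 4.36%. The tally compared counts here and not shares, and a smaller set of genes can only keep or lower a count. Among protein-coding genes the lists held 13.6% and 4.96%. With lengths from 0.67 to 1.5 times that of Reln, 86.4% and 48.4% of genes were listed. When peaks were held to a q-value of 0.01, DHT peaks numbered 50% of control peaks on chromosome 5, 38.2% on chromosome 4 and 57.9% on chromosome 19, and when held to a fold enrichment of 4 they numbered 113.6%, 86.0% and 121.8%. With reciprocal overlap of 50%, shared control and DHT peaks were 3.69% and 12.3% on chromosome 5 (5.48% and 18.2% with 1 bp), 1.96% and 8.19% on chromosome 4 (3.72% and 15.5%), and 3.61% and 11.7% on chromosome 19 (6.56% and 21.3%). The cause of these moves was not tested. Unknown depth limits every absence from a list.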

Other observations

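CpG content of start sites was also set beside the lists, with 1 window per gene, the one with most CpG. The median was 14 CpG for the 2398 control gene body genes with a window and 14 for the 909 DHT gene body genes, compared with 6 for all 27025 genes. Genes in the promoter lists had medians of 5 (control, 116 genes) and 6.5 (DHT, 38 genes). Reln and Dab1, at 37 and 40 CpG, lay above the upper quartile of 23 in both gene body lists. The 40 CpG of Dab1 are those of its second start, and its most upstream window had 10. Lrp8, listed in control, had 18 CpG and lay below that quartile. Gene length was not held equal in these medians, and its part in them was not tested.

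The labelled cell type could not be checked by expression, as the files hold a mark of silent genes. Of 14 granulosa cell markers 2 were listed in each group (14.3%), where all symbols gave 11.9% in control and 4.36% after DHT, and these counts are too few to read. Fshr had a gene body entry in each group, Cyp19a1 in control alone and Nr5a2 after DHT alone. Of 22 markers of other cells Dcn, a stromal gene, was in the control list, and Ptprc and Pecam1, markers of leukocytes and endothelium, were in both. For the 7 oocyte markers 0 were listed.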
